A study of Homo sapiens with 6 samples.

Results

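The genes described here were 10 members of the NF-κB system in NCI-N87 cells, a human gastric carcinoma line: the subunits NFKB1, NFKB2, RELA and RELB, the IκB family genes NFKBIA, NFKBIE and NFKBIZ, and the feedback and target genes TNFAIP3, TNFAIP2 and BIRC3. They were taken by symbol among the protein-coding rows of an RNA-seq table of 58735 genes, and all 10 were found. Transcript levels were measured in 6 libraries. The 3 shNC libraries came from cells transduced with the control, an empty lentiviral vector, and the 3 shScamp1 libraries from cells carrying an shRNA against SCAMP1, a secretory carrier membrane protein of recycling vesicles. The series' design text calls the same groups shCtrl and shS1#1. Both were stable populations of the same line, exposed to lentivirus for 24 h and selected with puromycin at 2 μg/ml. A single SCAMP1 hairpin was sequenced, and the control was an empty vector. Effects of that hairpin sequence, of carrying any hairpin and of lower SCAMP1 therefore cannot be told apart here. The titles call the replicates biological, but the study's methods leave the RNA-seq out of the experiments they describe as independently repeated. Whether the replicates were separate transductions or cultures is not given in the sources used here, so p-values measure the spread between these libraries.

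NF-κB proteins are dimeric transcription factors that share a Rel homology domain. RELA pairs mainly with the processed product of NFKB1 in the canonical branch and RELB with that of NFKB2 in the noncanonical branch. IκB proteins such as those encoded by NFKBIA and NFKBIE hold the dimers in the cytoplasm until the IKK kinases mark them for degradation. Several genes of the system, NFKBIA and TNFAIP3 among them, are themselves induced by NF-κB, and their products shut the signal down. Transcript levels of subunits and inhibitors do not measure nuclear NF-κB, which is set largely by protein degradation and processing.

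The DNA sites that the dimers read are short, and the promoters of several of these genes contain them. The promoter sequences below came from RefSeq (build GRCh38.p14) and cover 250 bases before to 50 after each annotated start. They were searched on both strands for the 10-base κB consensus. Windows were held for 8 of the 10 genes, and no window was held for RELB or NFKBIE. The consensus was found in the windows of 6 of these 8 genes and in 8 of their 13 windows. Over all RefSeq windows it was found in 3956 of 35116 (11.3%), and 16.1% of the protein-coding genes with a window had it at 1 start or more. The RELA and TNFAIP2 windows held no match to these letters. A match is a description of the sequence, and binding was not measured. The following 30-base stretches, 5′ to 3′ on the gene's strand with the consensus in capitals, are shown because the genes they belong to are those whose values are compared below.

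TNFAIP3: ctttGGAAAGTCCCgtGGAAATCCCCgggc
NFKBIA: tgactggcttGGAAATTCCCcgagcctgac
NFKBIZ: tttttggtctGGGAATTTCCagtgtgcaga
BIRC3: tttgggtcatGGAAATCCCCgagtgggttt
NFKB1: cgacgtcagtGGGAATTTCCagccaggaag
NFKB2: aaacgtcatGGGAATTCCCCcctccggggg

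The TNFAIP3 stretch lies at chr6:137867188-137867217 (+) and holds 2 matches within 30 bases, in exon sequence outside the coding part. The NFKBIA stretch lies at chr14:35404811-35404840 (−), the NFKBIZ stretch at chr3:101827757-101827786 (+), the BIRC3 stretch at chr11:102317275-102317304 (+) and the NFKB1 stretch at chr4:102501300-102501329 (+). The matches in these 4 lie upstream of the annotated gene. The NFKB2 stretch, at chr10:102394462-102394491 (+), holds 2 overlapping matches in exon sequence outside the coding part. In the stretches shown, NFKB1 and NFKBIZ carry the same 10 letters, and BIRC3 shares its 10 letters with 1 of the 2 TNFAIP3 matches. Further matches are not shown: over all their windows NFKB2 held 5 distinct sites, and BIRC3 and NFKBIZ held 2 each.

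The libraries held 14311769 to 15988700 reads on genes. The level of SCAMP1 itself was 12.6, 12.1 and 11.5 FPKM in shNC against 1.70, 1.37 and 1.99 FPKM in shScamp1, a reduction of the mean by 86.0% (log2 fold change −2.78 ± 0.14 SE, limma adjusted p = 0.000248). FPKM divides the fragments counted by gene length and by library size, so levels of different genes can be set side by side. Replicate 2 of shScamp1 stood apart from its group. It deviated from the mean of the other 2 shScamp1 libraries by over 0.4 (log2) in 37.6% of the genes tested, against 13.3% to 23.9% for every other library within its own group, and mitochondrial transcripts took 9.21% of its reads against 6.09% to 6.78%. Where leaving it out moved the log2 fold change of a gene described below by over 1.5 times, or changed its call, the value without it is given. All 9 gastric epithelial markers were expressed, and their summed level was 5537 to 5822 FPKM in shNC and 9250 to 10165 FPKM in shScamp1, with 6 of 9 passing the test, all higher. Most of that difference lay in the keratins KRT8 (means of 1534 and 3002 FPKM), KRT18 (875 and 2000 FPKM) and KRT19 (1688 and 2844 FPKM). EPCAM, ERBB2 and MUC1 had no call (log2 fold changes −0.05, 0.16 and 0.04, and −0.01, 0.09 and −0.02 without shScamp1 replicate 2). The part of these markers in the results below was not tested. None of 7 immune markers had a mean of 0.5 FPKM or more, 2 were at 0 in every library, and their sums were 0.644 to 0.825 FPKM in shNC and 0.481 to 0.717 FPKM in shScamp1. Of 8 stromal and endothelial markers, 1 reached a mean of 0.5 FPKM, 2 were at 0, and the sums were 0.693 to 0.924 against 1.10 to 1.25 FPKM.

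TNFAIP3 was the member that changed: its level rose 1.83-fold in shScamp1 cells and was the only 1 of the 10 with a limma adjusted p under 0.05. The subunits, the IκB genes, TNFAIP2 and BIRC3 had no call. Over all 15556 genes tested, 14.0% passed that threshold (8.82% higher and 5.17% lower in shScamp1), so 1 of 10 members is near the background. At an unadjusted p under 0.05 the count was 4 of 10 (NFKB2, RELB, TNFAIP3 and BIRC3, all higher) beside 30.7% of all genes. The same 4 were those whose FPKM did not overlap between the groups, which held for 41.4% of all genes and for 20.4% in the higher direction. No member passed when an absolute log2 fold change above 1 was also required, a rule met by 3.16% of genes. The median log2 fold change was 0.11 over the 10 members and −0.02 over all genes tested. With replicate 2 of shScamp1 left out, 3 members passed (TNFAIP3, NFKB2 and TNFAIP2, all higher), against a background of 28.3% (14.9% higher and 13.4% lower). More transcripts in every cell and more cells with the transcript cannot be told apart in bulk RNA.

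**Figure D1:**
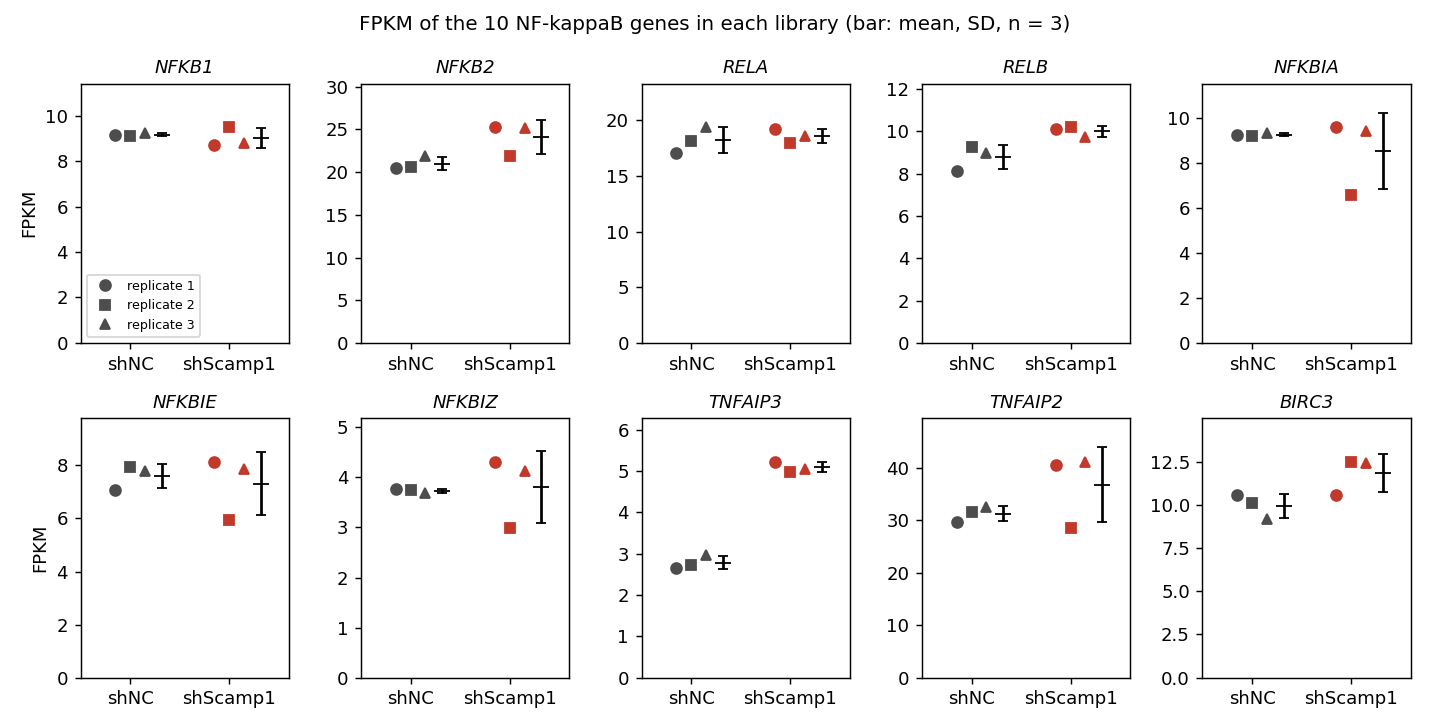
FPKM of each of the 10 genes (vertical axes from 0) in the 3 shNC libraries (grey) and the 3 shScamp1 libraries (red), with marker shape giving the replicate and the bar the mean and SD. TNFAIP3 lies at 2.66 to 2.96 FPKM in shNC and 4.99 to 5.23 FPKM in shScamp1, and the square of shScamp1 replicate 2 lies lowest for NFKBIA, NFKBIE, NFKBIZ and TNFAIP2.

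TNFAIP3 (ENSG00000118503, chr6:137867188-137883312) encodes A20, a ubiquitin-editing enzyme that removes activating ubiquitin chains from receptor-proximal signalling proteins and limits NF-κB activation. Its level was 2.66, 2.72 and 2.96 FPKM in the shNC libraries and 5.23, 4.99 and 5.06 FPKM in the shScamp1 libraries. The groups did not overlap, and each group held within a narrow range, with all 3 shScamp1 libraries near 5 FPKM including replicate 2. The means were 2.78 ± 0.16 and 5.09 ± 0.12 FPKM (SD, n = 3 each). The log2 fold change was 0.85 ± 0.077 (SE; 95% interval 0.67 to 1.04; limma with Benjamini-Hochberg adjustment over all genes tested, adjusted p = 0.00158). The values rest on 213 to 386 reads a library. The log2 fold change lay between 0.69 and 0.90 over the alternatives tried, other scalings of the libraries included, with adjusted p from 0.000539 to 0.0198. An antisense gene, AL357060.1, shares 95 exon bases (1.88%) with TNFAIP3. Its mean was 0.453 FPKM in shNC and 1.01 FPKM in shScamp1 (log2 fold change 0.99, adjusted p = 0.0738) with at most 72 reads in a library, and whether the counting used strand is not given in the sources used here.

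BIRC3 (ENSG00000023445, chr11:102317450-102339403) encodes cIAP2, a ubiquitin ligase of the TNF receptor complexes and an NF-κB target. It was at 10.5, 10.1 and 9.20 FPKM in shNC and at 10.6, 12.5 and 12.4 FPKM in shScamp1. The groups did not overlap, but the lowest shScamp1 library lay just above the highest shNC library. Its log2 fold change was 0.25 ± 0.095 (SE; 95% interval 0.02 to 0.48) and did not pass the test (adjusted p = 0.140).

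TNFAIP2 (ENSG00000185215, chr14:103123442-103137439), a TNF-inducible gene linked to exocytosis and membrane protrusions, was the most abundant of the 10. It was at 29.7, 31.6 and 32.6 FPKM in shNC and at 40.6, 28.5 and 41.2 FPKM in shScamp1. Replicates 1 and 3 of shScamp1 lay above every shNC library, and replicate 2 lay below all of them. With all libraries the log2 fold change was 0.21 ± 0.15 (SE; 95% interval −0.15 to 0.58; adjusted p = 0.383). Without shScamp1 replicate 2 it was 0.39 ± 0.049 (SE; adjusted p = 0.00362).

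Of the 4 subunits among the members, none had a call with all libraries. NFKB2 (ENSG00000077150, chr10:102394110-102402529) encodes the precursor that is processed to the partner of RELB. It was at 20.4, 20.6 and 21.9 FPKM in shNC and at 25.3, 21.9 and 25.2 FPKM in shScamp1. The groups did not overlap, but replicate 2 of shScamp1 lay just above the highest shNC library. The log2 fold change was 0.20 ± 0.080 (SE; 95% interval 0.00 to 0.39; adjusted p = 0.156), and without shScamp1 replicate 2 it was 0.27 ± 0.044 (SE; adjusted p = 0.00884).

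RELB (ENSG00000104856, chr19:45001430-45038198) was at 8.12, 9.23 and 8.96 FPKM in shNC and at 10.1, 10.2 and 9.71 FPKM in shScamp1. Every shScamp1 library lay above every shNC library. A log2 fold change of 0.19 ± 0.074 (SE; 95% interval 0.01 to 0.37) was found, with an adjusted p of 0.144, and it was 0.17 (adjusted p = 0.115) without shScamp1 replicate 2.

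NFKB1 (ENSG00000109320, chr4:102501329-102617302), whose processed product is the usual partner of RELA, was at 9.15, 9.12 and 9.25 FPKM in shNC and at 8.72, 9.51 and 8.78 FPKM in shScamp1. RELA (ENSG00000173039, chr11:65653596-65663094), the main transactivating subunit, was at 17.1, 18.2 and 19.4 FPKM in shNC and at 19.2, 18.0 and 18.6 FPKM in shScamp1. For both genes the groups overlapped. The 95% intervals of the log2 fold change were −0.19 to 0.13 for NFKB1 and −0.14 to 0.21 for RELA (adjusted p = 0.808 and 0.793). The log2 fold changes were −0.03 and 0.03 with all libraries, and −0.07 and 0.06 without shScamp1 replicate 2 (adjusted p = 0.290 and 0.549). RELA shares 9 exon bases with the noncoding gene AP001362.2.

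The subunits were also compared within each library, where no scaling between libraries enters. RELB and NFKB2 together took 50.3%, 50.5% and 50.2% of the summed FPKM of NFKB1, NFKB2, RELA, RELB and REL in shNC, and 54.2%, 50.5% and 53.8% in shScamp1. Replicates 1 and 3 of shScamp1 lay above shNC, and replicate 2 lay inside the shNC range. The difference of the means was 2.52 percentage points, with an exact two-sided permutation p of 0.2, where 3 against 3 libraries cannot go below 0.1. Without shScamp1 replicate 2 the difference was 3.71 percentage points. As a share of reads, where gene length is not divided out, the difference was 1.84 percentage points (exact permutation p = 0.4). In reads, replicate 2 of shScamp1 was at 38.1%, below the shNC libraries at 39.6% to 39.8%. The summed FPKM of the 5 subunits was 56.8 to 61.4 in shNC and 63.6 to 65.2 in shScamp1.

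NFKBIA (ENSG00000100906, chr14:35401511-35404749) encodes IκBα, the inhibitor that NF-κB itself restores quickly. It was at 9.25, 9.21 and 9.33 FPKM in shNC and at 9.61, 6.59 and 9.42 FPKM in shScamp1. Replicate 2 of shScamp1 was the low library, while the other 5 lay between 9.21 and 9.61 FPKM. The log2 fold change was −0.14 ± 0.15 (SE; 95% interval −0.50 to 0.23; adjusted p = 0.578) with all libraries and 0.04 ± 0.042 (SE; adjusted p = 0.546) without replicate 2.

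NFKBIE (ENSG00000146232, chr6:44258166-44265788), which encodes IκBε, was at 7.09, 7.95 and 7.77 FPKM in shNC and at 8.14, 5.94 and 7.86 FPKM in shScamp1. NFKBIZ (ENSG00000144802, chr3:101827991-101861022), which encodes the nuclear IκBζ that cooperates with NF-κB on a subset of target genes, was at 3.76, 3.75 and 3.69 FPKM in shNC and at 4.32, 2.98 and 4.12 FPKM in shScamp1. In both genes shScamp1 replicate 2 was the lowest of all 6 libraries and shScamp1 replicate 1 the highest. Neither passed the test (log2 fold change −0.07, adjusted p = 0.768 for NFKBIE, and 0.01, adjusted p = 0.971 for NFKBIZ). Without replicate 2 the log2 fold changes were 0.07 (adjusted p = 0.446) and 0.17 (adjusted p = 0.0860). Over the 9 members without a call, the lowest bound of a 95% interval of the fold change was 0.708 (NFKBIA) and the highest 1.49 (TNFAIP2), and the narrowest interval was that of NFKB1, from 0.879 to 1.09.

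**Figure D2:**
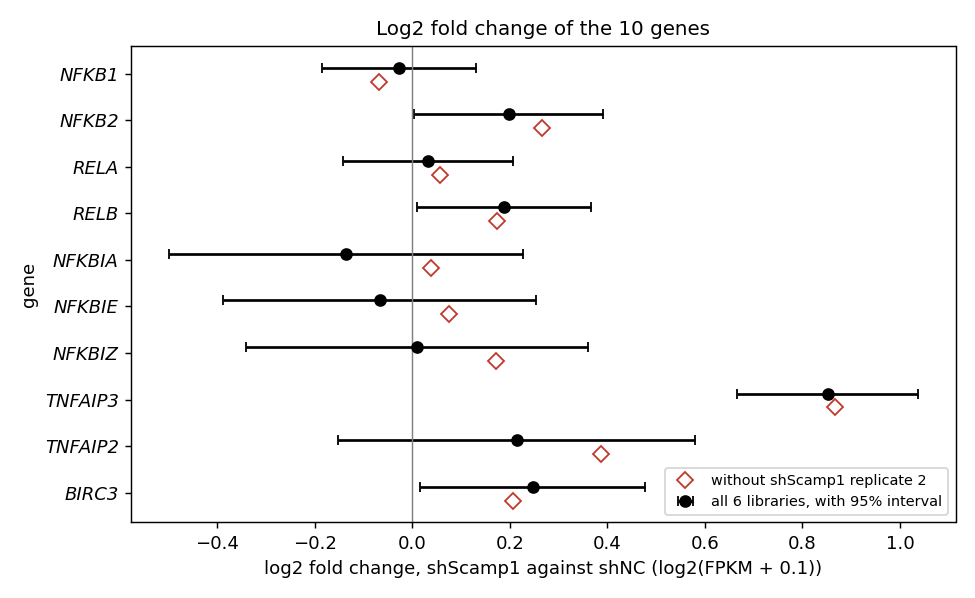
Log2 fold change of each gene, shScamp1 against shNC, on the log2(FPKM + 0.1) scale, with all 6 libraries and the 95% interval (black circles) and without shScamp1 replicate 2 (open red diamonds). TNFAIP3 lies at 0.85 with an interval from 0.67 to 1.04, the intervals of the other 9 genes end at 0.58 or lower, and NFKBIA and NFKBIE change sign without that library.

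In shScamp1 replicate 2 the members went different ways. NFKBIA, NFKBIE, NFKBIZ and TNFAIP2 lay below the mean of the other 2 shScamp1 libraries by over 0.4 on the log2 scale (differences of −0.52, −0.42, −0.49 and −0.52). That is 4 of 10 members, beside 21.1% of all genes tested in that library, and the cutoff of 0.4 was chosen after the values were seen. No member lay beyond 0.4 in any other library. In replicate 2, NFKB1, RELB and BIRC3 lay above the mean of the other 2 shScamp1 libraries by 0.12, 0.04 and 0.12. NFKB2, RELA and TNFAIP3 lay below it, with differences of −0.20, −0.07 and −0.04. The part of the mitochondrial share in these values was not tested.

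**Figure D3:**
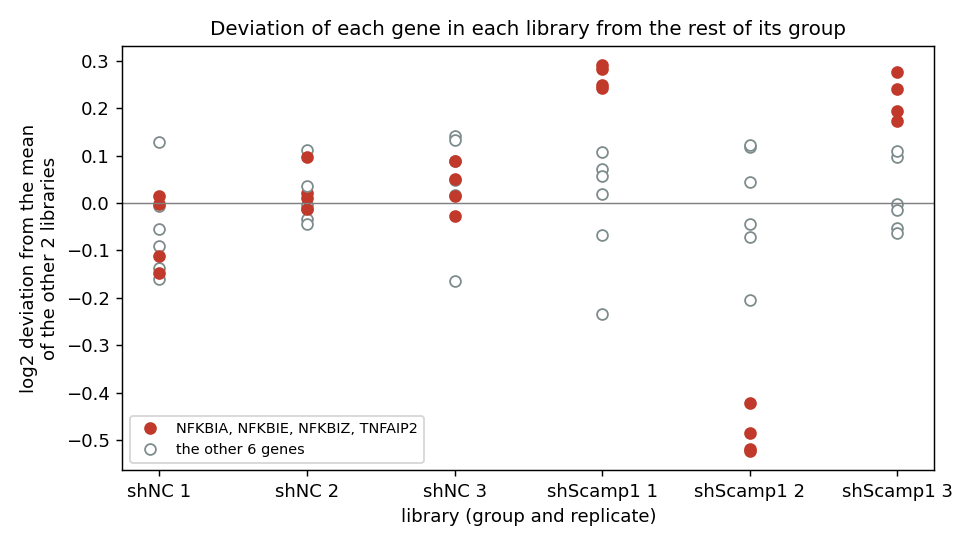
Deviation of each gene in each library (horizontal axis) from the mean of the other 2 libraries of its group, in log2 units. Filled red points are NFKBIA, NFKBIE, NFKBIZ and TNFAIP2, which lie between −0.52 and −0.42 in shScamp1 replicate 2, and open points are the other 6 genes.

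The order of the levels was TNFAIP2, NFKB2, RELA, BIRC3, NFKBIA, NFKB1, RELB, NFKBIE, NFKBIZ and TNFAIP3 in shNC, from 31.3 down to 2.78 FPKM. The libraries of neighbouring genes overlapped from BIRC3 to NFKBIA, from NFKBIA to NFKB1 and from NFKB1 to RELB, so the order within these 4 genes is not resolved. In shScamp1 the first 4 places were the same. RELB came next, and TNFAIP3 stood above NFKBIZ, with no overlap between them (4.99 to 5.23 against 2.98 to 4.32 FPKM). TNFAIP3 thus passed from the lowest of the 10 to the ninth place. Among protein-coding genes tested, TNFAIP3 lay at the 27.3 percentile of the shNC level and TNFAIP2 at the 89.3 percentile. The FPKM ratio of TNFAIP3 to NFKBIA, a pair chosen after the values were seen, was 0.288, 0.296 and 0.317 in shNC and 0.545, 0.757 and 0.537 in shScamp1. The highest ratio belongs to shScamp1 replicate 2, in which NFKBIA was low.

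The rest of the pathway was read from 8 lists of 139 genes by role, of which 104 passed the filter on low values. In all, 25 rose and 1 fell in shScamp1 cells, 25.0% of those tested beside 14.0% of all genes. The median log2 fold change of those tested was 0.14 against −0.02 over all genes. The lists were chosen with earlier results of these data known, so these figures describe the lists and do not test for an excess. The number moved when single libraries were left out. It was 14, 11 and 13 without shNC replicates 1, 2 and 3, and 16 without shScamp1 replicate 3. Without shScamp1 replicate 2 it was 46 (37 higher and 9 lower, the 26 included). The number over all genes moved the same way. It was 831 of 15563, 817 of 15554 and 859 of 15588 without shNC replicates 1, 2 and 3. Without shScamp1 replicates 3 and 2 it was 1029 of 15575 and 4374 of 15458. Of the 26 genes, 11 kept their call whichever library was left out.

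**Figure D4:**
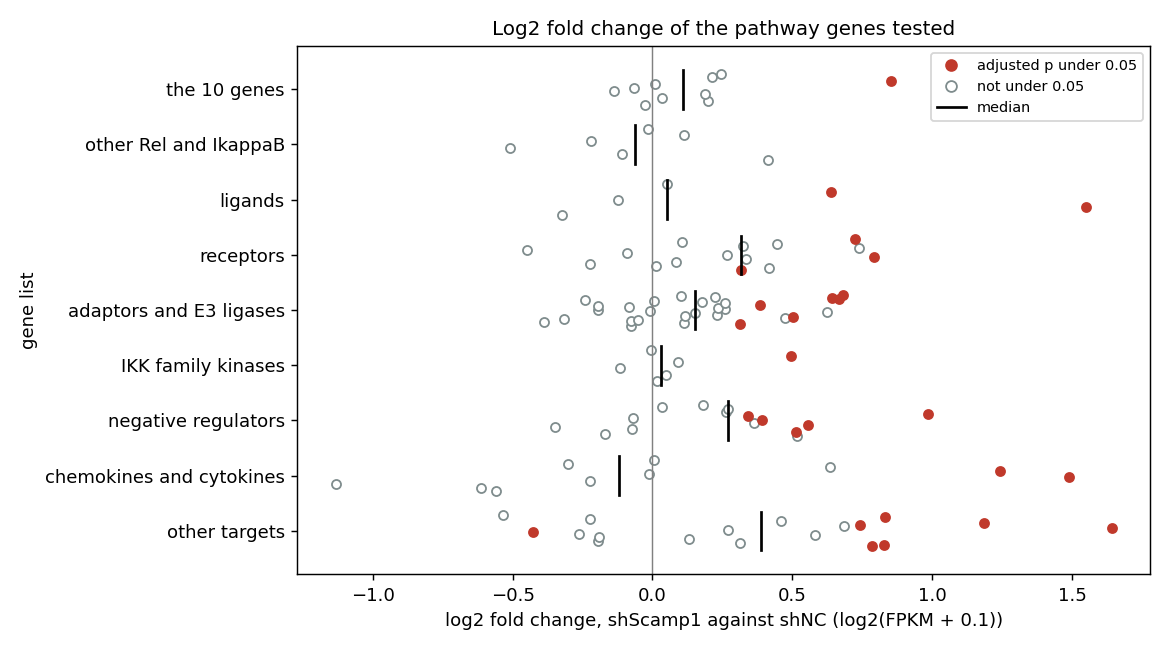
Log2 fold change, shScamp1 against shNC on the log2(FPKM + 0.1) scale, of each gene tested in the 9 gene lists (rows), filled red where the limma adjusted p was under 0.05, with the median of each list as a vertical line. TNFAIP3 is the 1 filled point among the 10 members, and CD44 at −0.43 is the 1 filled point below 0.

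Of the 6 other Rel and IκB genes none passed (median −0.06). REL, the fifth subunit, was at 2.04, 2.01 and 1.91 FPKM in shNC and at 1.89, 3.96 and 2.55 FPKM in shScamp1, with replicate 2 of shScamp1 highest. Its log2 fold change was 0.41 ± 0.25 (SE; adjusted p = 0.313) with all libraries and 0.14 ± 0.14 (SE; adjusted p = 0.506) without that library. Of the 6 IKK family kinases, 1 rose, TBK1 (log2 fold change 0.49, adjusted p = 0.0069), a kinase of interferon induction and selective autophagy, and the median was 0.03.

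Of 16 ligands, 5 were expressed enough to be tested, and 2 rose. TNFSF10, the death ligand TRAIL, had 2.28 ± 0.21 FPKM in shNC and 6.87 ± 0.40 in shScamp1 (means ± SD, n = 3; limma adjusted p = 0.000547 for a log2 fold change of 1.55). TNFSF15, a TNF family cytokine of epithelia and endothelia, had 3.96 ± 0.10 and 6.22 ± 0.35 FPKM (log2 fold change 0.64, adjusted p = 0.00368). TNF, LTB and IL6 were listed at 0 in every library.

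Of 15 receptors tested, 3 rose and none fell, with a median of 0.32. TNFRSF21, a death receptor also called DR6, had a log2 fold change of 0.79 (adjusted p = 0.00412). TLR6, which pairs with TLR2 to sense bacterial lipopeptides, had 0.72 (adjusted p = 0.0365), and TNFRSF1A, the main TNF receptor, had 0.32 (adjusted p = 0.0173). TNFRSF21 kept its call whichever library was left out. TLR6 and TNFRSF1A lost theirs without any single shNC library (adjusted p 0.0991 to 0.132 and 0.0816 to 0.0977) and without shScamp1 replicate 3 (0.0961 and 0.0827).

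Of 29 adaptors and ubiquitin ligases tested, 6 rose and none fell (median 0.15). The 3 with the largest change all belong to the CARD-BCL10-MALT1 complex, which carries signals from the receptor to IKK: CARD14 with a log2 fold change of 0.68 (adjusted p = 0.0118), BCL10 with 0.67 (adjusted p = 0.0212) and MALT1 with 0.64 (adjusted p = 0.0126). CARD10, the epithelial scaffold of the same complex, had 0.10 and no call. The complex was singled out after the values were seen. CARD14 lost its call without shNC replicate 1, shNC replicate 2 or shScamp1 replicate 3 (adjusted p 0.0563 to 0.0610), MALT1 without shNC replicate 2 or 3 (0.0647 and 0.0634), and BCL10 without any shNC library or shScamp1 replicate 3 (0.0565 to 0.0920). The other 3 with a call in this list were MYD88, RIPK1 and BIRC2, named although outside the rule for naming genes, and each lost it on leaving out 1 library or more.

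Of 15 negative regulators tested, 5 rose and none fell, with a median of 0.27. USP18, a deISGylase that dampens interferon signalling, had a log2 fold change of 0.99 (adjusted p = 0.00169) and kept its call whichever library was left out. TAX1BP1, an A20 adaptor, had 0.55 (adjusted p = 0.0140), and TNIP1, an A20-binding protein, had 0.51 (adjusted p = 0.00997). TAX1BP1 lost its call without shNC replicate 2 or 3 (adjusted p = 0.0605 and 0.0562), and TNIP1 without shNC replicate 1 or 2 (0.0546 and 0.0605). TNFAIP3, TAX1BP1, RNF11 and ITCH form the A20 complex, a group singled out after the values were seen. RNF11 had 0.39 (adjusted p = 0.0170, lost without any shNC library at 0.0706 to 0.0847) and ITCH 0.36 with no call (adjusted p = 0.170), which was 0.20 (adjusted p = 0.107) without shScamp1 replicate 2. The fifth gene of the list with a call was USP4, which lost it without any library except shScamp1 replicate 2.

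Of 20 chemokine and cytokine targets, 10 were tested, 2 rose and none fell, with a median of −0.12. CXCL8, the neutrophil chemokine interleukin-8, had 2.95 ± 0.23 FPKM in shNC and 8.50 ± 1.14 in shScamp1 (means ± SD, n = 3; limma adjusted p = 0.00110 for a log2 fold change of 1.49). CCL5, a T-cell chemokine, had 1.05 ± 0.14 and 2.63 ± 0.49 FPKM (log2 fold change 1.24, adjusted p = 0.00684). The related chemokines CXCL1, CXCL2 and CXCL3, which were named after their values were seen, had log2 fold changes of −0.56, −0.61 and −1.13 with no call (adjusted p = 0.198, 0.0883 and 0.139). Without shScamp1 replicate 2 the log2 fold changes were −0.25 for CXCL1 (adjusted p = 0.0382), −0.45 for CXCL2 (0.0825) and −0.59 for CXCL3 (0.00540). Chemokine genes classed as NF-κB targets thus lay on both sides of 0.

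Of 18 survival and other target genes tested, 6 rose and 1 fell (median 0.39). PTGS2, the inducible cyclooxygenase, had 1.32 ± 0.05 FPKM in shNC and 4.33 ± 0.34 in shScamp1 (means ± SD, n = 3; limma adjusted p = 0.000469 for a log2 fold change of 1.64). SAT1, the polyamine acetyltransferase, had a log2 fold change of 1.19 (adjusted p = 0.0173), and SQSTM1, the autophagy receptor also known to scaffold NF-κB signalling, had 0.83 (adjusted p = 0.000657). CD44, the hyaluronan receptor, fell by 0.43 on the log2 scale (adjusted p = 0.0189). PTGS2 and SQSTM1 kept their calls whichever library was left out. SAT1 lost its call without any shNC library or shScamp1 replicate 3 (adjusted p 0.0628 to 0.0754), and CD44 without any library except shScamp1 replicate 2 (0.0513 to 0.0952). The other 3 that rose were BCL2L1, CFLAR and SDC4, named outside the rule, of which SDC4 lost its call without any shNC library (0.0596 to 0.0634).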

How the data were processed

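RNA-seq libraries of shNC and shScamp1 cells (3 each) were analysed from the FPKM table deposited by the authors, the only measure used. The submitters' processing notes name HISAT2 2.0.5, featureCounts 1.5.0-p3, DESeq2 1.20.0 and hg38, without roles. FPKM times gene length gave whole reads in 100% of values (tolerance 0.01 reads), and the deposited FPKM already contain a median-of-ratios library scaling. Group was taken from the sample titles. Genes averaging 0.5 FPKM or more were tested with limma 3.58.1 (R 4.3.3) on log2(FPKM + 0.1), with a mean-variance trend, group alone as term and Benjamini-Hochberg adjustment over all genes tested; fold changes on this scale understate those of low genes. The subunit share was tested by exact permutation (scipy 1.17.1). The limma step was also run on simulated data with the same dispersion for every gene and library. That simulation held no deviating library, so it does not cover a case like shScamp1 replicate 2. The members and gene lists were chosen with earlier results of these data known. Named were the members, SCAMP1 and, per list and direction, up to 3 genes with an adjusted p under 0.05 and a mean of 1 FPKM or more, by absolute log2 fold change; others named are said to be so. Overlaps come from GENCODE 29. Alternatives were other pseudocounts (1 and 0.01), filters, scalings and models, voom on recovered reads, a replicate block, and each library left out.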

Additional observations from a re-analysis of the deposited data

How the results depend on the processing

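TNFAIP3 and SCAMP1 kept their direction and their call under every alternative run. The number of members with a call was 1 in every setting except 3 without shScamp1 replicate 2 (leave-one-out range 1 to 3) and 4 at an unadjusted p. The median log2 fold change of the members was 0.036 with voom on recovered reads and 0.071 to 0.17 over the left-out libraries. Members near 0 reversed: RELA to −0.042 with voom and −0.013 without shNC replicate 1 (−0.013 to 0.080 over the left-out libraries), and, without shScamp1 replicate 2, NFKBIA to 0.038 (range −0.231 to 0.038) and NFKBIE to 0.075 (−0.149 to 0.075). NFKBIZ went to −0.016 with equal FPKM sums, −0.0039 with quantile normalization, −0.064 with voom, and −0.087 and −0.055 without shScamp1 replicates 1 and 3 (range −0.087 to 0.172). The number of other pathway genes with a call was 11 to 46 over the left-out libraries and 50 at an unadjusted p. Their split by direction moved too: 25 were higher and 1 lower with all libraries. It was 22 and 5 with voom, 28 and 4 with protein-coding genes only, and 39 and 11 at an unadjusted p. Apart from the fit without shScamp1 replicate 2 (37 and 9), the other settings had 0 or 1 lower. The TNFAIP3 to NFKBIA difference was 0.666 as a ratio of reads, where gene length is not divided out. Over all genes the number with a call was 2177, against 817 to 4374 over the left-out libraries and 4782 unadjusted. Of the calls 63.0% were higher, against 44.0% with voom (1300 higher and 1655 lower). The voom fit scaled the reads by library totals, without the median-of-ratios scaling of the FPKM. Its median over all genes was −0.10. The causes were not tested.

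Deviations of same-numbered libraries from their group means correlated at −0.04, 0.03 and 0.07, and those of differently numbered libraries at −0.08 to 0.05. Deviations of 3 libraries from their own mean are tied to each other, so these values cannot decide whether the replicate numbers pair the libraries. With the replicate number as a block, TNFAIP3 stayed past the threshold (adjusted p = 0.0198), 16 other pathway genes and 958 genes in all had a call, and the paired exact p of the RELB and NFKB2 share was 0.5, where 3 pairs cannot go below 0.25. The member genes had 210 to 3031 reads a library, and the 95% intervals given with them show what 3 libraries a group resolve.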

Other observations

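The deposited table's own annotation assigns 10 genes to the Rel homology domain family of transcription factors: the 5 NF-κB subunits and the NFAT genes NFAT5, NFATC1, NFATC2, NFATC3 and NFATC4, calcium- or stress-responsive factors that share the domain. NFAT5, which responds to osmotic stress, was at 15.1, 14.5 and 14.0 FPKM in shNC and at 16.6, 31.1 and 19.8 FPKM in shScamp1. The groups did not overlap, and shScamp1 replicate 2 was far the highest. The log2 fold change was 0.58 ± 0.22 (SE; limma adjusted p = 0.137) with all libraries and 0.32 (adjusted p = 0.0388) without that replicate. NFATC3 was at 3.48, 3.59 and 3.29 FPKM in shNC and at 2.71, 3.66 and 2.62 FPKM in shScamp1, and its log2 fold change was −0.21 (adjusted p = 0.345) with all libraries and −0.36 (adjusted p = 0.0171) without replicate 2. NFATC4 did not reach the filter on low values. NFATC1 and NFATC2 had no call, with log2 fold changes of 0.21 and −0.01, and 0.12 and −0.16 without shScamp1 replicate 2.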
